A study of Mus musculus with 4 samples.

Results

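Genes of cholesterol synthesis and of fatty acid synthesis and oxidation were followed in R1 mouse embryonic stem cells (ES cells) after knockdown of Brg1. The 53 genes were chosen by name, as enzymes and regulators of these pathways, with earlier results of these data known. Every probe set whose annotated symbol was one of them was taken. The 53 comprised 24 sterol genes and 29 fatty acid genes, out of 12393 genes with a probe set on the array. Of the 53, 49 had a probe set of their own (86 probe sets in all) and 47 were bright enough to be tested, while Acat2, Insig1, Acsl1 and Acsl3 were not analysed here. R1 is an established mouse ES cell line. The 2 knockdown samples were R1 cells infected with a lentivirus carrying an shRNA (short hairpin RNA) against Brg1, the ATPase of SWI/SNF chromatin remodelling complexes. The 2 control samples were R1 cells infected with a lentivirus carrying an shRNA against GLUT4, a glucose transporter. All cells, infected in duplicate, were harvested 67 h after infection, and each sample was read on 1 Affymetrix array.

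Animal cells build cholesterol from acetyl-CoA through mevalonate, isoprenoids, squalene and lanosterol. When membrane cholesterol is low, the escort protein Scap carries the transcription factors SREBP1 and SREBP2 (genes Srebf1 and Srebf2) from the endoplasmic reticulum to the Golgi, where they are cut and released to activate sterol and fatty acid synthesis genes. Insig proteins hold Scap back when sterols are plentiful. Fatty acid synthase makes saturated chains that desaturases and elongases modify, synthetases and thioesterases attach and remove coenzyme A, and mitochondria degrade the chains by beta-oxidation.

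The deposited values are signals on a linear scale, and all 4 arrays had a mean of 200.1 signal units after trimming 2% of the probe sets at each end. Smarca4, which encodes Brg1, read 652.1 and 621.5 on the knockdown arrays against 1186.6 and 1213.6 on the control arrays. The groups did not overlap, in the direction the labels give, and the log2 difference was -0.89 (limma, adjusted p = 0.000232). Slc2a4, which encodes GLUT4, read 20.9 and 23.9 in the knockdown and 11.7 and 19.2 in the control, below the mean level of 23.9 signal units from which genes were tested. All 6 ES cell markers lay above that level, with summed signals of 10730 and 10258 in the knockdown and 9734 and 9903 in the control. Nanog was the 1 ES cell marker called higher, at 1040 and 1003.1 in the knockdown against 564.7 and 533.6 in the control. Of the 10 fibroblast markers, 8 lay below it, as did all 4 hepatocyte markers and 5 of 6 primitive endoderm markers. In bulk samples fewer cells of a type and less RNA per cell cannot be told apart.

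The sequence near the gene starts played no part in choosing the genes, and the share holding one short motif differed between the pathway groups, a difference that was not tested. The letters CCAAT, the binding motif of NF-Y (a factor known to act with SREBPs), were searched on both strands, where they read ATTGG on the opposite strand. Each window ran from 250 bases before to 50 bases after an annotated start (RefSeq, mouse build GRCm38.p6). Of the 53 members 46 had a window. CCAAT was found for 14 of 15 sterol synthesis enzymes (93.3%), against 41.1% of all 27025 genes in the table and 43.4% of the 6387 genes tested on the arrays that had a window. It was found for 4 of 5 sterol regulators, 3 of 6 fatty acid synthesis genes, 5 of 7 thioesterases and synthetases and 3 of 13 oxidation genes (23.1%). The core of the sterol response element, TCACNCCAC, was found for 2 members, Hmgcs1 and Acsl1, against 1.44% of all genes. CACGTG, the E-box, was found for 6 of 46 members (13.0%) against 8.09% of all genes and 12.7% of the genes tested on the arrays, a share near that of the members. These are matches of letters in a window and not measured binding.

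**Figure D1:**
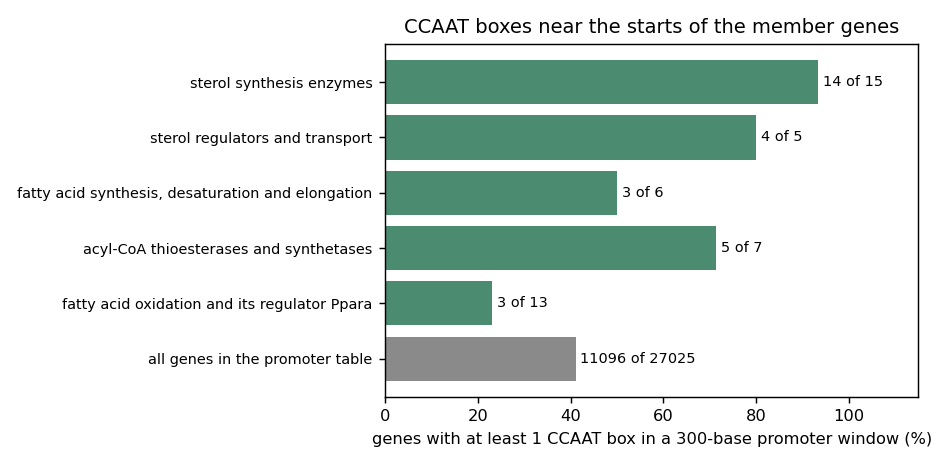
Share of genes (%, horizontal axis) with at least 1 CCAAT box on either strand of any of their 300-base promoter windows. Green marks the 5 member groups and grey all genes in the promoter table. The sterol synthesis enzymes stand at 14 of 15 genes and the oxidation group at 3 of 13, on either side of all genes at 41.1%.

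The 6 stretches below are the 250 bases before the annotated start of genes whose values follow, each on the plus strand of GRCm38.p6. Capitals mark CCAAT on either strand, the sterol response element core and the E-box. Hmgcs1 (chr13:119690101-119690350) is shown because its stretch holds both a sterol response element core and CCAAT boxes. Idi1 (chr13:8885356-8885605) and Lss (chr10:76531355-76531604) are the sterol enzymes that fell in the knockdown, Scap (chr9:110333106-110333355, the downstream one of its annotated starts) the regulator that rose. Acot1 (chr12:84009252-84009501) had the largest fall among the members. Hadhb (chr5:30155003-30155252) rose, and its stretch is shared with Hadha, which is transcribed the other way: the 300-base windows of the pair have 228 bases in common.
Hmgcs1: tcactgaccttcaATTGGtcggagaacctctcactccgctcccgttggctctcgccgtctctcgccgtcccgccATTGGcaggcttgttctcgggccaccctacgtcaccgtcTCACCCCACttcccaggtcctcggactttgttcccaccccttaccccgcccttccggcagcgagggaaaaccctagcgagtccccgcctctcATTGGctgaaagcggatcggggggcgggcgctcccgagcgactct
Idi1: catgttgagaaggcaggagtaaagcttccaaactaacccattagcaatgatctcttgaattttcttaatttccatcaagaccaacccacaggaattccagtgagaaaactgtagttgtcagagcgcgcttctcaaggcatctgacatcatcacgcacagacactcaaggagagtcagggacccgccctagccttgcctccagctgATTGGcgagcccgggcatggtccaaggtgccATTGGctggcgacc
Lss: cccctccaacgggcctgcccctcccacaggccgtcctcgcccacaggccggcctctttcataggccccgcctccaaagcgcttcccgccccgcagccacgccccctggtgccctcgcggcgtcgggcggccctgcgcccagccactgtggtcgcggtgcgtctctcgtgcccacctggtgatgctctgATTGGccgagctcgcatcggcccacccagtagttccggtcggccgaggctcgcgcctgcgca
Scap: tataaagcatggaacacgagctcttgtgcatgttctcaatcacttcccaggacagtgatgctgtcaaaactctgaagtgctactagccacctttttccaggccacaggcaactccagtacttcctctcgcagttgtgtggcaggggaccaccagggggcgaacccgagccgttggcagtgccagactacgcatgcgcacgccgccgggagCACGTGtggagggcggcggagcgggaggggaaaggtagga
Acot1: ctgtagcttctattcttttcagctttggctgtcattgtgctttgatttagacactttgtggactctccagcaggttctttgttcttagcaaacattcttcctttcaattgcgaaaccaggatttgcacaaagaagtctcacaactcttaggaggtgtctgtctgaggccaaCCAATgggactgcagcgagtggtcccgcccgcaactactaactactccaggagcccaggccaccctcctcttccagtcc
Hadhb: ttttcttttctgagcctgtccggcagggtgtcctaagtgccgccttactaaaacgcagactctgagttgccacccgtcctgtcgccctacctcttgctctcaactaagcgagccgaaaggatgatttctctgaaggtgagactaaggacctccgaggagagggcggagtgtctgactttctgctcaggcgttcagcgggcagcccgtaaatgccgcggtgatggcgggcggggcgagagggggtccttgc

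Across the members, falls were more frequent than rises on the deposited scale, but not on arrays scaled to the hybridisation spike-ins, where 7 members were called higher and 1 lower. On the deposited scale rises were called for 3 of the 47 tested members and falls for 7, while 37 were not past the threshold. The test was limma over all 7815 genes, with Benjamini-Hochberg adjustment and a threshold of 0.05. That is 21.3% of members called, against 14.4% of all genes tested. The members were chosen with earlier results of these data known, so the shares describe the list and do not test it. In the upward direction 3 of 47 compare with 9.33% of all genes, and in the downward direction 7 of 47 compare with 5.09%. The median log2 difference of the members was -0.08, against 0.04 for all genes tested. A difference below 0 was seen in 63.8% of the members (30 of 47) and in 44.6% of all genes. With spike-in scaling 9 of 47 members were below 0, while 30 lay below the median of all genes under either scaling. Both knockdown arrays lay below both control arrays for 22 members and above them for 11, and 14 had overlapping arrays. Over all genes 60.2% had arrays that did not overlap, 25.9% with the knockdown below and 34.3% with it above. Differences are on the scale of log2(signal + 20), knockdown minus control, which understates changes of dim genes.

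The rises were Scap, Acads and Hadhb, and the falls Idi1, Lss, Scd2, Fads1, Acot1, Acot7 and Acsl4. Scap and Acot1 passed the test in each of 17 alternative settings. Each of the other 8 kept its sign in all of them but lost its call in at least 4. These include settings that leave out 1 array, which ended the call of Idi1 and Acot7 whichever array was left out. With spike-in scaling the median of all genes moved up by 0.28. The mean log2 signal of the 18 spike-in probe sets was 9.51 and 9.24 in the knockdown and 9.73 and 9.64 in the control. Each fall other than that of Acot1 then missed the threshold, while relative to the shifted median all 10 stayed on the side reported. With single probe sets tested one by one, 1 of the members' 73 testable probe sets was called higher and 6 lower, against 9.13% of all 13576 probe sets called in either direction and 3.37% called lower.

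**Figure D2:**
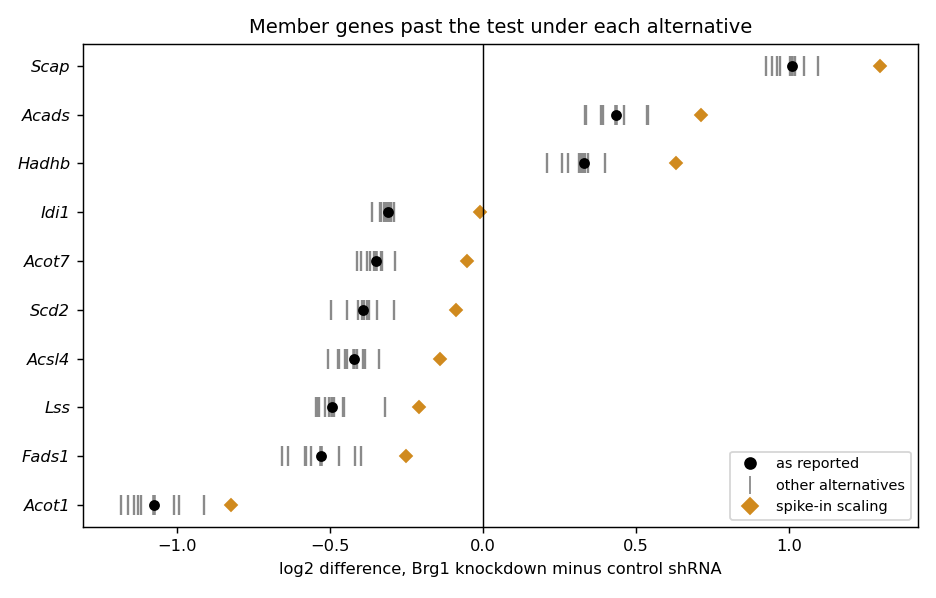
Log2 difference (horizontal axis, knockdown minus control) of the 10 members past the test as reported (black), under spike-in scaling (orange diamonds) and under the other alternatives (grey ticks). Spike-in scaling moves every gene to the right, and Idi1 then lies at -0.01, while Scap and Acot1 stay the farthest from 0 on their sides.

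**Figure D3:**
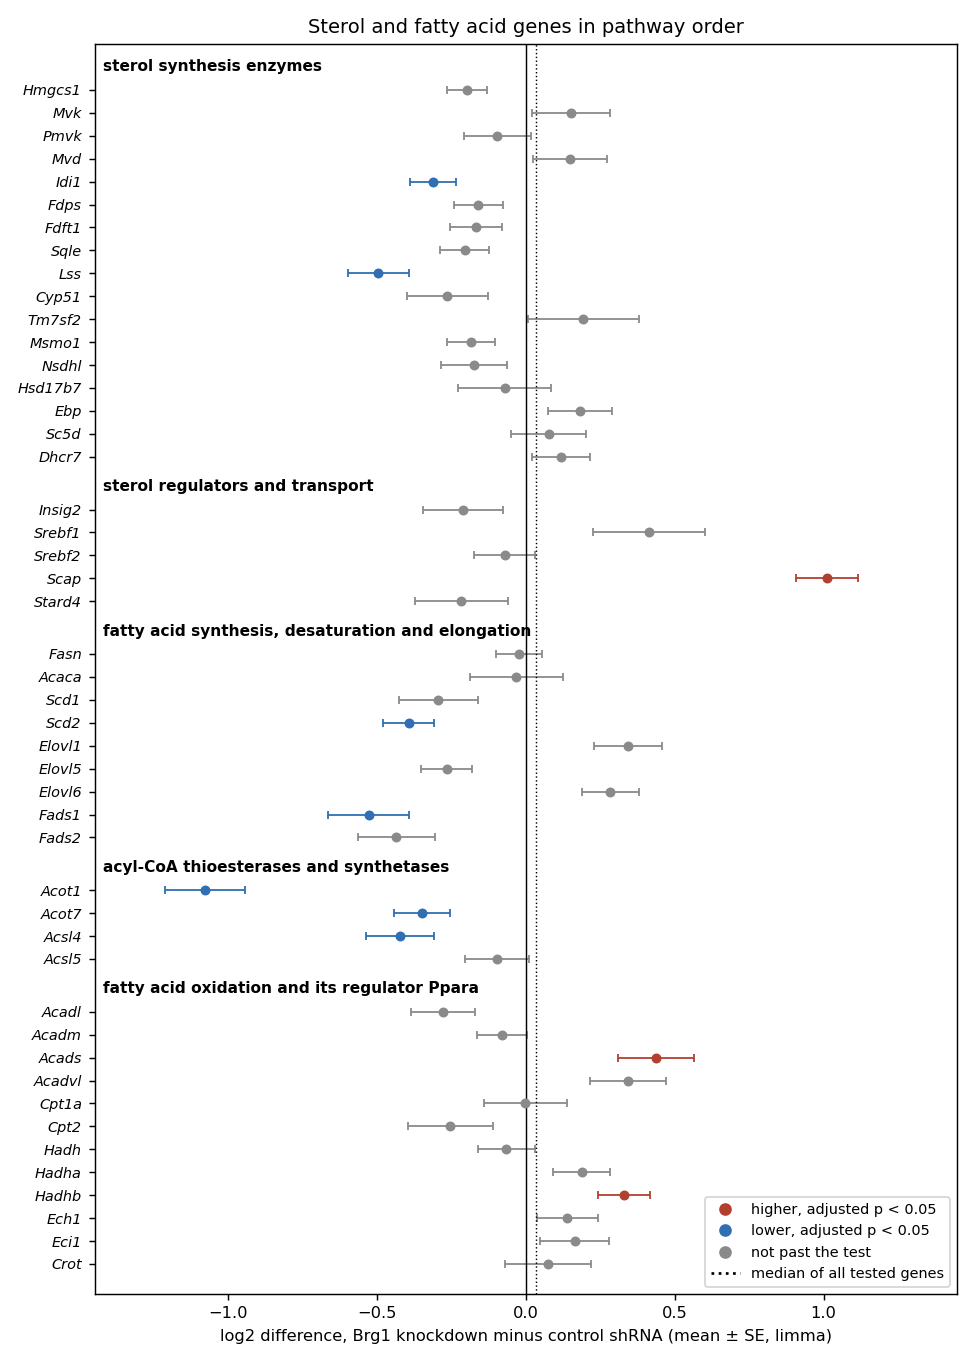
Log2 difference between Brg1 knockdown and control shRNA (horizontal axis; points are limma estimates with SE bars, 2 arrays per group) for the 47 tested members in pathway order. Red genes were higher and blue genes lower at an adjusted p under 0.05; Scap (1.01) and Acot1 (-1.08) lie farthest from the dotted median of all tested genes (0.04).

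Of the 17 sterol synthesis enzymes tested, falls were called for 2 and rises for 0 (limma; 5 had an unadjusted p under 0.05). Their median log2 difference was -0.16. The share called, 11.8%, is near the 14.4% of all genes called in either direction, while 5.09% of all genes were called lower. With 2 calls, the count alone does not set them apart. Idi1, which interconverts the isoprenoid building blocks isopentenyl and dimethylallyl diphosphate, read 756.8 and 735.4 signal units in the knockdown and 938.8 and 924.2 in the control. All knockdown values lay below all control values. The log2 difference was -0.31 ± 0.08 (SE; limma, adjusted p = 0.0286). A further Idi1 probe set ran the same way without passing (-0.36, adjusted p = 0.168 in the fit of single probe sets). Without 1 array the adjusted p of Idi1 lay between 0.0528 and 0.119.

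Lss, lanosterol synthase, which closes the rings of the sterol skeleton, read 194.0 and 182.1 in the knockdown against 274.8 and 271.7 in the control. The groups did not overlap, and the log2 difference was -0.50 ± 0.10 (SE; limma, adjusted p = 0.0135). The suffix of the probe set behind this value (_s_at) marks probes shared between transcripts. A dimmer probe set of Lss at 28.4 and 25.1 against 31.5 and 24.2 did not follow it (-0.03, adjusted p = 0.929), and averaged over its probe sets Lss did not pass (-0.32, adjusted p = 0.106). Without knockdown replicate 2 its adjusted p was 0.0558.

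Hmgcs1, HMG-CoA synthase, adds an acetyl-CoA unit early in the pathway. Its signals were 1887 and 1939.5 in the knockdown and 2221.7 and 2171.9 in the control, again with no overlap. The difference, -0.20 ± 0.07, did not pass over all genes (limma, adjusted p = 0.0813). One further probe set of Hmgcs1, of the kind that can cross-hybridise, did pass in the fit of single probe sets, at 702.4 and 609.7 in the knockdown against 928.1 and 1050 in the control (-0.58, adjusted p = 0.0127). The other pair gave -0.04 and -0.16 and did not pass.

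Squalene epoxidase, Sqle, read 619.9 and 602.3 in the knockdown against 706.4 and 709.9 in the control (-0.21 ± 0.08, adjusted p = 0.119). The methylsterol oxidase Msmo1, which acts after lanosterol, read 977.4 and 1066 against 1144.2 and 1182.2 (-0.18 ± 0.08, adjusted p = 0.148). Both had separate groups with the knockdown lower, as did 25.9% of all genes, and neither passed the test.

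Along the pathway, 7 of the 9 tested enzymes up to lanosterol had differences below 0 (Hmgcs1, Pmvk, Idi1, Fdps, Fdft1, Sqle and Lss). In all 7 the groups did not overlap. Over all genes tested, 44.6% had differences below 0, and 25.9% had separate arrays with the knockdown lower. With spike-in scaling only Idi1 (-0.01) and Lss (-0.21) of the 9 were below 0. Mvk (0.15) and Mvd (0.15), the mevalonate kinase and mevalonate diphosphate decarboxylase, were above 0 with overlapping arrays. A further probe set of Mvd read 235.5 and 236.0 in the knockdown against 195.8 and 200.5 in the control, separate but not past the test (0.23, adjusted p = 0.196 in the fit of single probe sets). A further probe set of Mvk gave -0.13, and Mvk was the 1 gene among 20 with several testable probe sets whose probe sets differed in sign. After lanosterol the 8 enzymes were divided, 4 below 0 and 4 above. Cyp51, the lanosterol demethylase, Msmo1, Nsdhl and Hsd17b7 ran from -0.26 to -0.07, while Tm7sf2, Ebp, Sc5d and Dhcr7, the last of which reduces 7-dehydrocholesterol to cholesterol, ran from 0.08 to 0.19. None of these 8 passed the test, and the difference between the stretches was not tested. The cut at lanosterol was not among the member groups set for the tests.

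Of the 5 tested regulators and transport genes of the pathway, 1 rose and 4 were not past the test. Over all genes 14.4% were called and 9.33% were called higher, so 1 call does not set this group apart. Scap had the largest rise among the members. It read 393.3 and 398.1 signal units in the knockdown and 198.8 and 174.5 in the control. The groups were far apart relative to their spread, with means of 395.7 ± 3.39 and 186.7 ± 17.2 (SD, n = 2 each). On the log2 scale the groups differed by 1.01 ± 0.11 (SE), or 2.02-fold on this scale (limma, adjusted p = 0.000427). It rests on 1 probe set and lay between 0.93 and 1.10 when any 1 array was left out.

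The SREBP genes did not pass the test. Srebf1 read 285.1 and 327.0 in the knockdown against 173.4 and 288.8 in the control (0.41 ± 0.19, adjusted p = 0.166). Its 2 control arrays differ by more than the group means do, and the arrays overlap. Without control replicate 2 the difference was 0.75 and passed (adjusted p = 0.00232), and without control replicate 1 it was 0.08. With the replicate numbers as a block its adjusted p was 0.0494, and with spike-in scaling 0.0117. Srebf2 was at 356.2 and 370.0 against 356.8 and 410.1 (-0.07 ± 0.10, adjusted p = 0.67). Insig2, which retains Scap in the endoplasmic reticulum, read 108.4 and 137.4 in the knockdown and 140.5 and 148.9 in the control (-0.21 ± 0.13, adjusted p = 0.316), and all 3 of its probe sets were below 0. The cholesterol carrier gene Stard4 was at 107.1 and 84.7 against 130.3 and 99.6 (-0.22 ± 0.16, adjusted p = 0.381), with overlapping arrays.

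**Figure D4:**
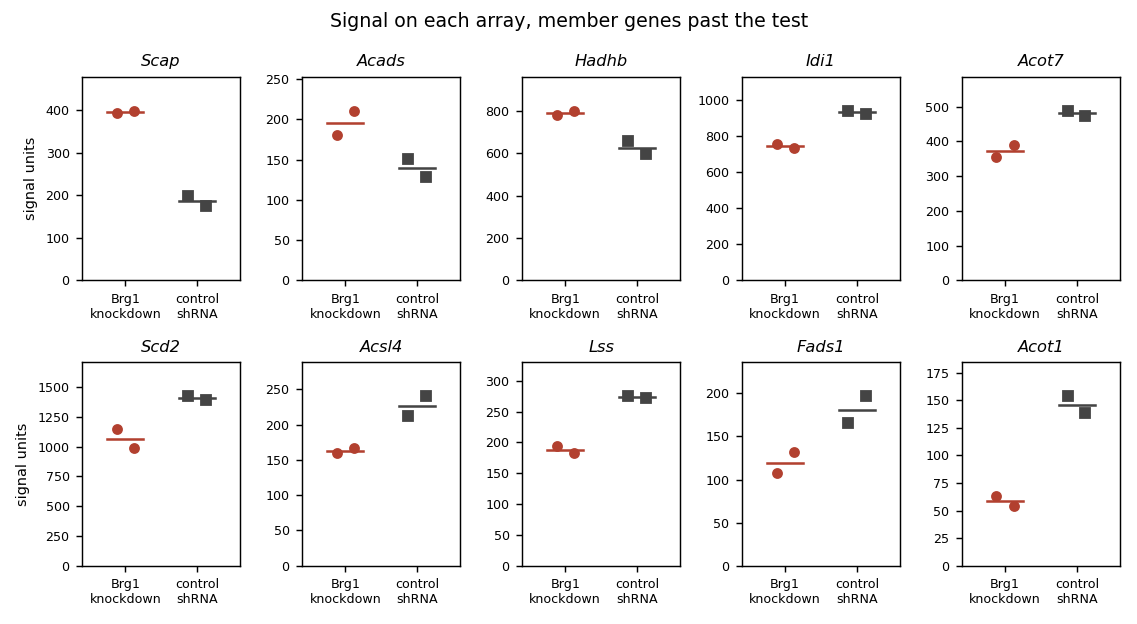
Signal units (vertical axes, from 0) on each of the 2 Brg1 knockdown arrays (red circles) and 2 control shRNA arrays (dark squares) for the 10 members past the test, with group means as lines. In each panel the arrays of the groups do not overlap, and the separation is widest for Scap and Acot1.

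Genes of fatty acid synthesis, desaturation and elongation numbered 9, all tested, of which 0 rose, 2 fell and 7 missed the threshold (limma; median log2 difference -0.27). The share called was 22.2%, against 14.4% of all genes, and 5.09% of all genes were called lower. The falls were both desaturase genes. Scd2, a stearoyl-CoA desaturase that makes monounsaturated fatty acids, read 1146.1 and 989.6 in the knockdown against 1422 and 1390.9 in the control. The groups did not overlap (-0.39 ± 0.09, adjusted p = 0.0176). Its 3 probe sets lay close together, at -0.39, -0.33 and -0.39. Without knockdown replicate 2 the adjusted p was 0.0977.

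Fads1, a desaturase of polyunsaturated fatty acids, read 107.1 and 132.1 in the knockdown and 165.9 and 196.5 in the control. The difference was -0.53 ± 0.14 (SE; limma, adjusted p = 0.0321), a call that was lost without knockdown replicate 1 or control replicate 2 (adjusted p = 0.0987 and 0.128). Fads2, the desaturase that precedes Fads1 in polyunsaturated fatty acid synthesis, sat just outside the threshold. It read 109.8 and 125.6 in the knockdown and 152.7 and 180.4 in the control (-0.44 ± 0.13, adjusted p = 0.0509). A further Fads2 probe set passed in the fit of single probe sets (-0.51, adjusted p = 0.0414). Scd1, at 231.4 and 305.0 against 351.5 and 310.9, did not pass (-0.29 ± 0.13, adjusted p = 0.164), with a further probe set at -0.51 (adjusted p = 0.0527). Among the members, Sc5d, a desaturase of the sterol pathway, had overlapping arrays (0.08). All 4 fatty acid desaturase genes had separate arrays with the knockdown lower, as did 25.9% of all genes. Of these 4, which were not a group set for the tests, 2 passed. Fads3, a related gene outside the 53, lay below the tested level with the knockdown arrays higher, at 15.9 and 10.9 against 5.1 and 4.0 in the control.

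Of the 3 elongases, 2 were above 0 and 1 below. Elovl1 read 216.1 and 251.5 in the knockdown against 180.8 and 178.6 in the control (0.34 ± 0.11, adjusted p = 0.0733), and Elovl6 was at 541.6 and 620.2 against 479.9 and 465.8 (0.28 ± 0.10, adjusted p = 0.0776). Elovl5, which extends polyunsaturated chains, read 679.7 and 640.3 in the knockdown and 770.6 and 825.5 in the control (-0.27 ± 0.08, adjusted p = 0.0644). In each of these the groups were separate, as in 60.2% of all genes in either direction, but none passed over all genes. Fasn, fatty acid synthase, was at 1262 and 1239 against 1224.6 and 1321.1 (-0.02 ± 0.08, adjusted p = 0.859). Acaca, acetyl-CoA carboxylase, which supplies its substrate malonyl-CoA, had a difference of -0.03 ± 0.16 (adjusted p = 0.911). Arrays overlapped for both, so the enzymes of chain synthesis itself showed no difference beyond the spread, with SEs of 0.08 and 0.16.

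Acyl-CoA thioesterase and synthetase genes gave 0 rises and 3 falls in 4 tested members (limma; median log2 difference -0.39). Over all genes 14.4% were called and 5.09% were called lower. Acot1, a cytosolic thioesterase that frees fatty acids from coenzyme A and is known in mouse as a target of PPAR alpha, had the largest fall among the members. It read 63.3 and 54.2 signal units in the knockdown and 153.6 and 138.6 in the control. The means were 58.8 ± 6.43 and 146.1 ± 10.6 (SD, n = 2 each). On the log2 scale Acot1 fell by 1.08 ± 0.13 (SE), with an adjusted p of 0.00114 in limma. Acot2, its mitochondrial relative, lay below the tested level with its own probe set, at 8.8 and 14.3 against 16.5 and 5.5. A probe set annotated to both genes read 90.7 and 91.2 in the knockdown against 171.9 and 157.6 in the control (-0.73, adjusted p = 0.00994 in the fit of single probe sets). The genes are close relatives in sequence, and whether the Acot1 probe set also reads Acot2 was not tested.

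Acot7, another cytosolic thioesterase, read 355.5 and 389.8 in the knockdown and 487.2 and 473.0 in the control (-0.35 ± 0.09, adjusted p = 0.0365). Acsl4, a synthetase that prefers arachidonic acid, read 159.4 and 166.9 against 211.7 and 240.2 (-0.42 ± 0.11, adjusted p = 0.0365). Its 3 probe sets gave -0.42, -0.41 and -0.40, all with separate groups. Acsl5 was at 235.8 and 271.3 in the knockdown and 269.0 and 275.5 in the control and overlapped (-0.10 ± 0.11, adjusted p = 0.57). Without 1 array the adjusted p of Acot7 lay between 0.0531 and 0.122, and that of Acsl4, which passed only without control replicate 1, between 0.0406 and 0.162.

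Among the 12 tested members of fatty acid oxidation, rises were called for 2 and falls for 0 (limma), and the median log2 difference was 0.11. The share called, 16.7%, is near the 14.4% of all genes called in either direction, while 9.33% of all genes were called higher. Acads, the acyl-CoA dehydrogenase of short chains, read 180.4 and 210.3 in the knockdown and 150.7 and 127.8 in the control. The groups were separate, and the difference of 0.44 ± 0.13 lay just inside the threshold (adjusted p = 0.0491). The adjusted p of Acads was 0.224 with knockdown replicate 2 left out, 0.185 with control replicate 2 left out and 0.0638 with arrays centred on their medians.

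Hadhb, the beta subunit of the mitochondrial trifunctional protein, read 781.6 and 798.8 in the knockdown against 657.3 and 594.6 in the control (0.33 ± 0.09, adjusted p = 0.0351). A further Hadhb probe set of the cross-hybridising kind gave 0.09 (adjusted p = 0.765 in the fit of single probe sets). The adjusted p of Hadhb was 0.0625 and 0.124 with the first or second knockdown array left out and 0.139 with control replicate 2 left out. Hadha, the alpha subunit, whose gene shares the promoter stretch printed above, was at 395.3 and 434.7 in the knockdown and 361.2 and 362.3 in the control. The groups were separate, and the difference of 0.19 ± 0.10 did not pass (adjusted p = 0.214). Whether the pair differed in their response was not tested.

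Acadvl, the dehydrogenase of very long chains, read 113.1 and 112.6 in the knockdown and 81.1 and 88.5 in the control (0.34 ± 0.13, adjusted p = 0.0997). Acadl, that of long chains, went the other way at 203.7 and 183.2 against 237.0 and 240.0 (-0.28 ± 0.11, adjusted p = 0.113). Acadm, that of medium chains, had a difference of -0.08. The 4 dehydrogenases of different chain length thus spanned -0.28 to 0.44. The entry step of long chains into mitochondria showed no rise: Cpt1a was at 64.1 and 69.8 in the knockdown against 65.9 and 68.2 in the control (-0.0023 ± 0.14, adjusted p = 0.993), and Cpt2 had a difference of -0.25 ± 0.14 (adjusted p = 0.261). Hadh, Ech1, Eci1 and the peroxisomal carnitine transferase Crot ranged from -0.07 to 0.16. Ppara, the nuclear receptor that activates oxidation genes, was near the bottom of the scale at 2.4 and 1.3 in the knockdown and 1.6 and 2.0 in the control, and was not tested.

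Set side by side, the sterol genes (22 tested) had 1 rise, 2 falls and a median log2 difference of -0.13. The fatty acid genes (25 tested) had 2 rises, 5 falls and a median of -0.07. The shares called were 13.6% of the sterol genes, near the 14.4% of all genes tested, and 28% of the fatty acid genes. Within the fatty acid genes the medians of the 3 groups were -0.27 for synthesis, -0.39 for thioesterases and synthetases and 0.11 for oxidation, against 0.04 for all genes tested. These contrasts between lists were not tested. No tested member had a group mean below the tested level in either group.

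Lists of 110 further genes of the same pathways held 93 with a probe set, of which 70 were tested, 7 rose, 2 fell and the rest missed the threshold (limma). By list, 5% to 20% were called, on either side of the 14.4% of all genes. Of the 15 tested genes listed as other sterol genes, a list that includes the mitochondrial thiolase Acat1, Abca1 and Acat1 rose and 13 did not pass. Abca1, which exports cholesterol from cells, read 326.0 and 326.5 signal units in the knockdown and 126.9 and 129.9 in the control. Abca1 thus differed by 1.22 ± 0.10 (SE) on the scale of log2(signal + 20), or 2.33-fold on this scale (limma, adjusted p = 0.000192). A further Abca1 probe set gave 1.00. Acat1, the mitochondrial acetoacetyl-CoA thiolase, read 314.6 and 311.9 in the knockdown against 222.9 and 207.0 in the control (0.51, adjusted p = 0.0111). Further Acat1 probe sets gave 0.45 and 0.14 and did not pass in the fit of single probe sets. Averaged over its probe sets Acat1 did not pass (0.36; limma, adjusted p = 0.0523).

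Of 10 other acyl-CoA genes, 2 rose, both of the fatty acid transport protein family, whose members carry or activate fatty acids at membranes. Slc27a2 read 1376.2 and 1326.1 in the knockdown and 623.4 and 649.2 in the control (1.06 ± 0.08, adjusted p = 7.03e-05). Slc27a4 read 203.3 and 236.1 against 97.3 and 111.3 (0.95 ± 0.13, adjusted p = 0.00159). Each rests on 1 probe set, and the groups were well separated. Slc27a1, of the same family, had overlapping arrays and did not pass (0.07 ± 0.18, adjusted p = 0.807 in limma). Of 20 other fatty acid synthesis genes, 0 rose and 1 fell: Elovl4, an elongase of very long chains, at 44.7 and 41.6 in the knockdown and 78.5 and 69.7 in the control (-0.57, adjusted p = 0.0302). A further Elovl4 probe set gave -0.29 and did not pass in the fit of single probe sets.

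Of 25 other oxidation genes, 3 rose and 1 fell. Acad11, an acyl-CoA dehydrogenase of long and very long chains, was at 208.3 and 202.8 in the knockdown and 121.5 and 128.1 in the control (0.64 ± 0.11, adjusted p = 0.00622). Its further probe set gave 0.66. The rises of Acad9 (0.47, adjusted p = 0.0249) and of Bdh1, an enzyme of ketone body metabolism (0.52, adjusted p = 0.0273), were smaller. A further Acad9 probe set gave 0.17 and did not pass in the fit of single probe sets. Averaged over probe sets, neither Acad9 (0.32) nor Bdh1 (0.40) passed (limma, adjusted p = 0.0691 and 0.0983). Echs1, the mitochondrial enoyl-CoA hydratase, fell to 461.8 and 423.4 in the knockdown, against 577.4 and 579.6 in the control (-0.37, adjusted p = 0.0249). Abca1, Slc27a2, Slc27a4 and Acad11 passed in all 17 alternatives, and the other 5 did not. Leaving out 1 array ended the call of Elovl4 (without knockdown replicate 2 or either control array, adjusted p up to 0.169), Echs1 (the same 3 arrays, up to 0.125), Acad9 (knockdown replicate 2 or control replicate 1, up to 0.117) and Bdh1 (knockdown replicate 1 or control replicate 1, up to 0.121).

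**Figure D5:**
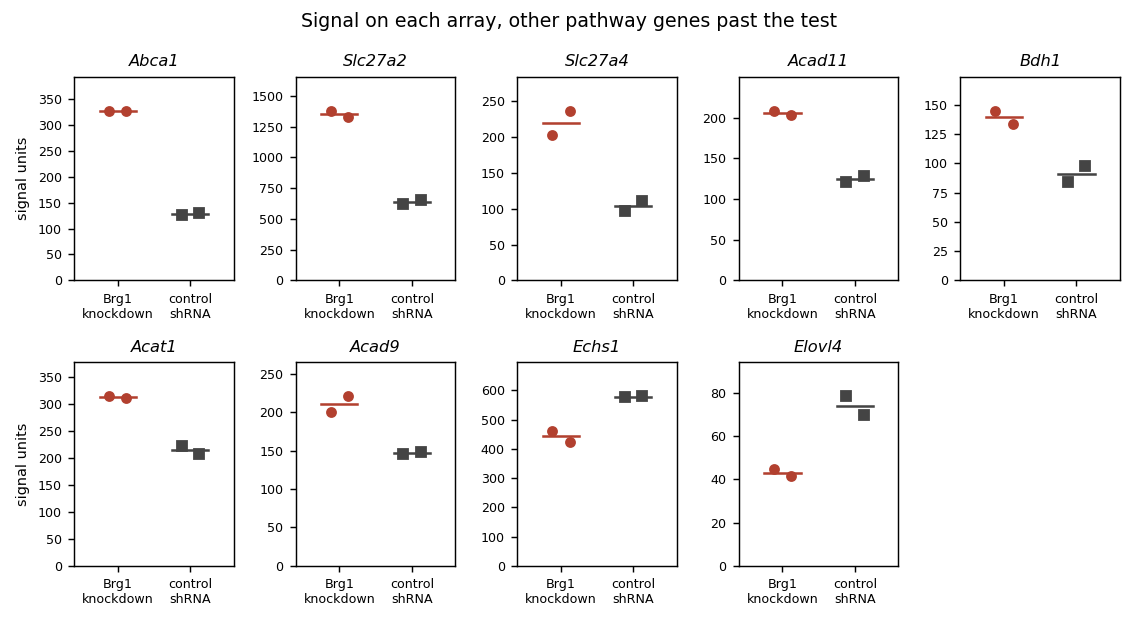
Signal units (vertical axes, from 0) on the 2 Brg1 knockdown arrays (red circles) and 2 control shRNA arrays (dark squares) for the 9 further pathway genes past the test, with group means as lines. The separation is widest for Abca1, Slc27a2 and Slc27a4, with log2 differences of 1.22, 1.06 and 0.95.

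Lpl, lipoprotein lipase, listed among adipocyte markers, was at 85.9 and 84.4 in the knockdown and 134.7 and 132.4 in the control (-0.55, adjusted p = 0.0183). The other adipocyte markers on the array lay below the tested level. Adipoq was at 22.3 and 26.0 in the knockdown and 5.8 and 4.0 in the control, separate in the opposite direction, and Fabp4 was at 4.9 and 1.0 against 0.4 and 3.7. The summed signal of the 3 markers was 113.1 and 111.4 in the knockdown and 140.9 and 140.1 in the control. Lpl alone was lower in both knockdown arrays than in both control arrays, and any part of these markers in the members' differences was not tested.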

How the data were processed

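The values are array intensities, 1 signal per probe set and array, which the authors deposited; the submitters' processing notes name GCOS. The GCOS version, algorithm and scaling target were not given in the sources used here. All 4 sample columns were used. Of 22690 probe sets, 20380 had 1 gene in the platform annotation. Symbols were updated by Entrez ID (20351 matched).

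Signals were taken as log2(signal + 20), the pseudocount being 10% of the trimmed mean, with no further normalization. Each gene was read from its probe set with the highest mean log2 value, and cross-hybridising probe sets ending in _x_at were used only where there was no other. Genes at or above the 40th percentile of probe sets (23.9 signal units) were tested, knockdown against control, with limma 3.58.1 in R 4.3.3 (lmFit, eBayes with an intensity trend, two-sided, Benjamini-Hochberg adjustment over 7815 genes). The fit was tested on simulated data. Values in every array are given for members past the test and for the 3 with the smallest p besides in each group. Some other members, Lpl and the probe sets were named after their values were seen. The members, lists and settings were chosen with earlier results of these data known. The duplicates were separate infections, so p-values rest on 2 infections per group. The spread behind each p-value combines that of a gene's own duplicates with one shared over genes of similar intensity. Log2 values of the duplicates differed with an SD of 0.22 in the knockdown and 0.20 in the control. The number of arrays limits the precision.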

Additional observations from a re-analysis of the deposited data

How the results depend on the processing

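The 17 alternatives changed the pseudocount, filter, scaling, variance model, probe set choice, threshold or replicate block, or left out 1 array, which leaves 1 group with a single array assumed to vary like the other. Over all genes, the reported 729 higher and 398 lower were 324 and 109 with no filter, 1478 and 37 with spike-in scaling, and 291 and 102 at a threshold of 0.01. The lower count was 598 with median centring and 219 without the trend. Counts by probe set take the fit of every probe set by itself, but only the probe set used for each gene. Counted so, 239 were lower, while of all 13576 probe sets in that fit 458 were lower. Leaving out 1 array gave 421 to 742 higher and 180 to 429 lower, fewest without knockdown replicate 2. For the members (3 higher, 7 lower), the counts were 1 and 4 by probe set, 1 and 2 with no filter and without the trend, 1 and 1 at 0.01 and 7 and 1 with spike-ins. Median centring left 1 higher, and leaving out arrays gave 1 to 4 higher and 3 to 6 lower. For sterol genes (1 and 2), 0 were lower with probe set means, spike-ins or at 0.01, and 1 with no filter or trend. Spike-ins gave 2 higher, and leaving out arrays 1 to 2 higher and 0 to 1 lower. For fatty acid genes (2 and 5), 0 were higher by probe set, with median centring, no filter, no trend or at 0.01, and 1 with probe set means or quantiles. The lower count was 2 by probe set and 1 with no filter, no trend, spike-ins or at 0.01, and spike-ins gave 5 higher. Leaving out arrays gave 0 to 3 higher and 2 to 5 lower. The replicate numbers only name the samples. With them as a replicate block, sterol genes called higher numbered 2, Srebf1 being added, and the other counts stayed within 1.5 times. Across genes, the differences between replicates of the groups had a correlation of -0.14, and a crossed pairing gave 930 higher and 548 lower over all genes and 4 and 9 members. The median of sterol genes (-0.13) was -0.18 with median centring, 0.15 with spike-ins and -0.15 to -0.071 without 1 array. That of fatty acid genes (-0.066) was -0.12, 0.22 and -0.10 to -0.050, and -0.032 with no filter. Spike-in scaling moved the median of all genes by 0.28, single genes by differing amounts, and these members changed sign: Hmgcs1 0.11, Pmvk 0.18, Fdps 0.15, Fdft1 0.13, Sqle 0.095, Cyp51 0.016, Msmo1 0.12, Nsdhl 0.11, Hsd17b7 0.16, Insig2 0.060, Srebf2 0.22, Stard4 0.043, Fasn 0.28, Acaca 0.20, Elovl5 0.036, Acsl5 0.19, Acadl 0.0060, Acadm 0.22, Cpt1a 0.24, Cpt2 0.015 and Hadh 0.23. Acadl was 0.012 with probe set means and Fasn 0.036 with quantiles. Signs also changed without 1 array, over ranges of -0.018 to 0.31 for Mvd, -0.055 to 0.44 for Tm7sf2, -0.21 to 0.068 for Hsd17b7, -0.0044 to 0.16 for Sc5d, -0.17 to 0.024 for Srebf2, -0.078 to 0.030 for Fasn, -0.17 to 0.11 for Acaca, -0.050 to 0.045 for Cpt1a, -0.15 to 0.017 for Hadh and -0.11 to 0.26 for Crot. The causes were not tested. Signal limits Acot2 and Ppara, which lay below the tested level.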
